A study of Mus musculus with 7 samples.

Results

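Endothelial cells of mouse Group 3 medulloblastomas (G3 MBs) were followed through 10 genes that mark blood vessels: Pecam1, Cdh5, Kdr, Flt1, Tek, Tie1, Cldn5, Eng, Esam and Emcn. The genes were taken by symbol and not by a cutoff on their measured values, although earlier results of these data were known. They are 10 of the 34592 genes in the deposited counts. All 10 passed the filter on low counts that left 17389 genes for testing.

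RNA was sequenced from 7 tumors of 1 tumorsphere line, # 19568, of which 4 carried human WDR11 (WDR11OE) and 3 were controls. The line came from a tumor of Trp53-/-; Cdkn2c-/- granule neuron progenitors, taken from the cerebella of mice 7 days old. These cells were given a retrovirus for Myc and a fluorescent protein, which is GFP in the paper's methods and RFP in a figure legend. All 7 tumors thus share both deletions and the added Myc. Spheres were infected with a lentivirus that expresses WDR11 and copGFP from the EF1 promoter, or with the empty copGFP vector, although the treatment field of the control labels reads "none". Infected cells were not sorted and were implanted in the cortex of CD1-nu/nu mice, which lack T cells, and pieces of tumor were frozen once the mice were moribund. The labels' extraction protocol names these pieces as the source of the RNA, while their source field reads tumorspheres. The age of these mice is not given in the sources used here, and that of the mice in which the first tumors grew was 6 to 8 weeks. Tumor and host are both mouse, so reads from host vessels and from tumor cells are counted on the same genes.

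Blood vessels are lined by endothelial cells, which adhere to each other through VE-cadherin, claudins and other junction proteins. Their growth is driven by VEGF through the receptor tyrosine kinases KDR and FLT1, and their stability is set by angiopoietins through TEK (TIE2) and its partner TIE1. Vessels of the brain differ from those of other organs in their tight blood-brain barrier, and G3 MB is a highly malignant tumor of the cerebellum.

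Total counts per tumor were between 32116095 and 87141305, and a single endothelial gene had between 104 and 1961 counts in a tumor. The 10 genes together held between 0.011% and 0.0205% of the counts of a tumor. Libraries of the control and the WDR11OE tumors were numbered in separate series, so that library series and condition cannot be told apart. The titles of WDR11OE tumors 1 and 2 share a number, and whether they come from 1 animal is not given. Wdr11, of which the counts hold the mouse gene, was at 58.3 to 59.3 CPM (counts scaled to library size with TMM factors) in the controls and at 61.0 to 68.9 CPM in the WDR11OE tumors (log2 fold change 0.16, edgeR adjusted p = 0.0910). All 10 endothelial genes were detected in all 7 tumors, which does not show which cells made their RNA.

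Of the 10 endothelial genes, 4 were lower in WDR11OE tumors than in controls (Eng, Cdh5, Flt1 and Esam), 0 were higher and 6 did not pass an adjusted p of 0.05. Eng, a TGF-beta co-receptor of endothelial cells, fell most, with a mean of 19.6 CPM ± 5.23 (SD, n = 3) in controls and of 6.76 CPM ± 1.11 (SD, n = 4) in WDR11OE tumors. Pecam1, Tek, Cldn5 and Emcn, which are also endothelial markers, had overlapping groups. In the same test, the quasi-likelihood test of edgeR with p-values adjusted by the method of Benjamini and Hochberg, 15.8% of all genes tested were lower and 18.1% were higher. By the stricter rule that also asks for at least a 2-fold change and an average log2 CPM above 0, Eng and Cdh5 were lower, against 3.36% of all genes tested. The values of the groups did not overlap for 5 of the genes, all lower in WDR11OE tumors (Eng, Cdh5, Flt1, Esam and Tie1), against 19.1% of all genes tested. The median log2 fold change, WDR11OE over control throughout, was −0.48 over the 10 genes and 0.08 over all genes tested. In bulk RNA of this kind, fewer endothelial cells and less RNA of these genes per cell cannot be told apart. Nothing in the labels says that the tumors of a group came from separate cultures, so p-values measure the spread between these tumors only.

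**Figure D1:**
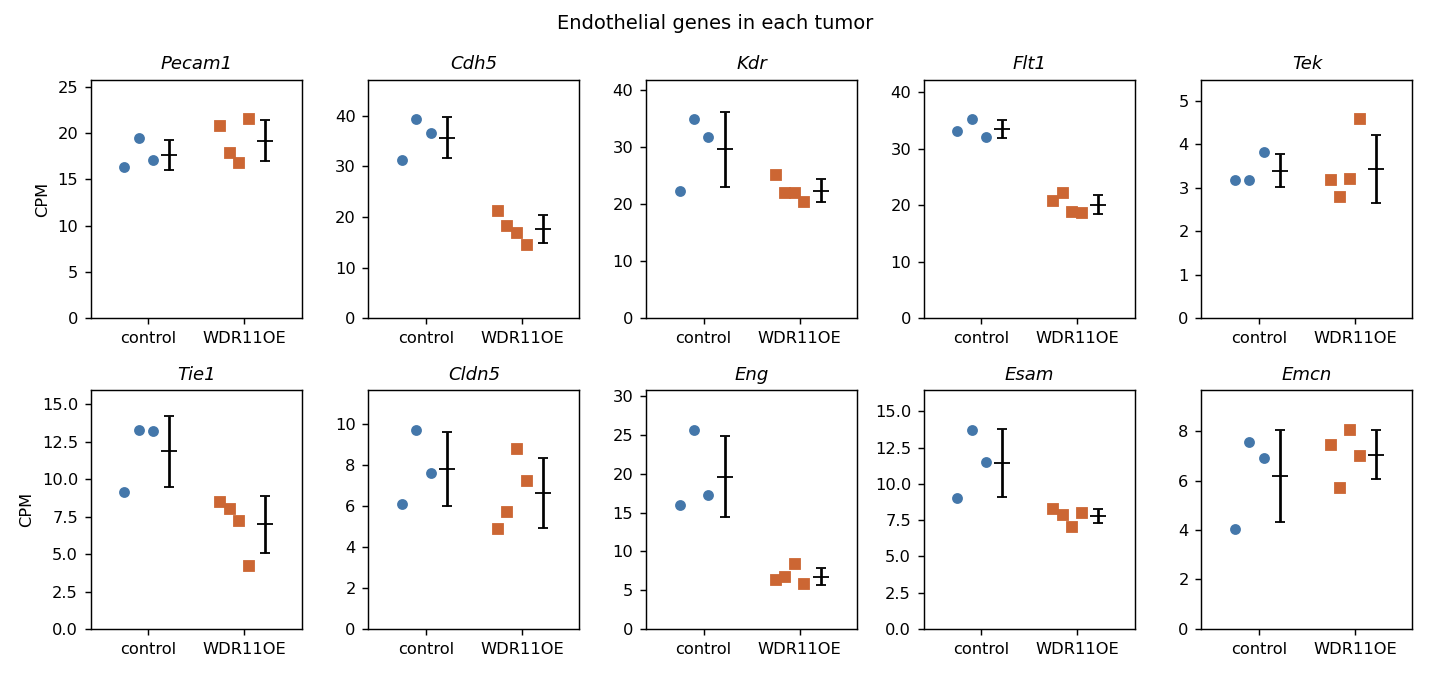
CPM (linear axis from 0) of each of the 10 endothelial genes in the 3 control tumors (blue circles) and the 4 WDR11OE tumors (orange squares), with the mean and SD of each group in black. The groups do not overlap for Cdh5, Flt1, Tie1, Eng and Esam, whereas the circles and squares of Pecam1, Kdr, Tek, Cldn5 and Emcn overlap.

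Of the 4 junction genes, Cdh5 and Esam were lower and Pecam1 and Cldn5 did not pass the test. Cdh5 encodes VE-cadherin, the adherens junction protein of endothelium (chromosome 8, 106625525 to 106668402, + strand, build NCBIM37). It was at 31.2, 39.3 and 36.6 CPM in controls 1 to 3 and at 21.1, 18.3, 16.8 and 14.5 CPM in WDR11OE tumors 1 to 4. Every WDR11OE tumor lay below every control. The log2 fold change was −1.02 (standard error 0.145, edgeR adjusted p = 0.00238), and the two-sided exact permutation test over the 35 splits of the tumors gave p = 0.0286, which is the smallest it can give.

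Pecam1 encodes the adhesion protein CD31, which is widely used to stain vessels (chromosome 11, 106515531 to 106611942, − strand, NCBIM37). It was at 16.3, 19.5 and 17.1 CPM in the controls and at 20.7, 17.8, 16.8 and 21.5 CPM in the WDR11OE tumors. The groups overlapped, and no tumor stood apart. The log2 fold change was 0.12, with a 95% interval from −0.17 to 0.42 (edgeR adjusted p = 0.496), so that a fall of the size seen for Cdh5 lies outside its interval. Pecam1 is also made by platelets and some leukocytes.

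Cldn5 encodes the main claudin of the blood-brain barrier (chromosome 16, 18776940 to 18778353, + strand, NCBIM37). Its values were 6.09, 9.70 and 7.60 CPM in the controls and 4.90, 5.73, 8.78 and 7.22 CPM in the WDR11OE tumors. The ranges of the groups overlapped widely, and the log2 fold change of −0.23 had a 95% interval from −0.82 to 0.36 (edgeR adjusted p = 0.534). Esam, an immunoglobulin-like adhesion molecule of endothelial tight junctions (chromosome 9, 37335663 to 37345904, + strand, NCBIM37), was at 9.03, 13.7 and 11.5 CPM in the controls and at 8.24, 7.88, 7.06 and 7.96 CPM in the WDR11OE tumors. The groups of Esam did not overlap, although control 1 lay close above the WDR11OE tumors. For Esam the log2 fold change was −0.55 (standard error 0.167, edgeR adjusted p = 0.0390), and the call was lost when any single tumor other than control 1 was left out (adjusted p from 0.0533 to 0.133 with the same edgeR test).

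Both VEGF receptors on the list had lower means in WDR11OE tumors, and Flt1 passed the test. Flt1 encodes VEGFR1, which binds VEGF-A, VEGF-B and PlGF (chromosome 5, 148373180 to 148537587, − strand, NCBIM37). It was at 33.2, 35.1 and 32.1 CPM in the controls and at 20.8, 22.1, 18.8 and 18.6 CPM in the WDR11OE tumors. The tumors of each group lay close together and the groups did not overlap. The log2 fold change was −0.74, with the smallest standard error of the 10 genes (0.0911, edgeR adjusted p = 0.00151, two-sided exact permutation test p = 0.0286).

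Kdr encodes VEGFR2, the main signalling receptor for VEGF-A (chromosome 5, 76328852 to 76374483, − strand, NCBIM37). It was at 22.3, 34.9 and 31.8 CPM in the controls and at 25.1, 22, 22 and 20.5 CPM in the WDR11OE tumors. Control 1 lay among the WDR11OE tumors, and the other controls lay above them. The log2 fold change was −0.40 with a 95% interval from −0.78 to −0.03 before adjustment (edgeR adjusted p = 0.0906). Without control 1 it was −0.58 (edgeR adjusted p = 0.0123).

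The TIE receptors did not pass the test. Tie1, an orphan receptor that modulates TEK (chromosome 4, 118143796 to 118162666, − strand, NCBIM37), was at 9.14, 13.3 and 13.2 CPM in the controls and at 8.48, 8.0, 7.24 and 4.2 CPM in the WDR11OE tumors. The groups of Tie1 did not overlap, WDR11OE tumor 4 was the lowest, and control 1 was nearest to the other group. For Tie1 the log2 fold change was −0.77 (standard error 0.268, edgeR adjusted p = 0.0632). Without WDR11OE tumor 4 it was −0.59 and past the threshold (edgeR adjusted p = 0.0459). Tek, the angiopoietin receptor TIE2 (chromosome 4, 94405980 to 94541667, + strand, NCBIM37), was at 3.17, 3.17 and 3.83 CPM in the controls and at 3.17, 2.78, 3.20 and 4.57 CPM in the WDR11OE tumors. The groups of Tek overlapped, with a log2 fold change of 0.02 and a 95% interval from −0.50 to 0.54 (edgeR adjusted p = 0.959).

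Eng encodes endoglin, which is raised on growing vessels and binds BMP9 and TGF-beta with their receptors (chromosome 2, 32502115 to 32538189, + strand, NCBIM37). It was at 16, 25.6 and 17.3 CPM in the controls and at 6.30, 6.67, 8.32 and 5.74 CPM in the WDR11OE tumors. The groups were far apart, with control 2 the highest of all. Eng had a log2 fold change of −1.54 (standard error 0.209, edgeR adjusted p = 0.00199, two-sided exact permutation test p = 0.0286), and it was −1.30 without control 2 (edgeR adjusted p = 0.00772). Endoglin is also found on mesenchymal cells and activated macrophages. Emcn, a sialomucin of capillaries and veins (chromosome 3, 137004031 to 137095149, + strand, NCBIM37), was at 4.06, 7.58 and 6.93 CPM in the controls and at 7.46, 5.70, 8.04 and 7.0 CPM in the WDR11OE tumors. Its groups overlapped, with control 1 the lowest tumor, and the log2 fold change was 0.19 with a 95% interval from −0.39 to 0.76 (edgeR adjusted p = 0.607).

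Over the 16 alternatives of test, scaling, filter, GC correction and left-out tumors, Cdh5, Flt1 and Eng were lower and past the threshold in all 16. The log2 fold change lay between −1.15 and −0.92 for Cdh5, between −0.83 and −0.70 for Flt1 and between −1.67 and −1.29 for Eng. Esam was past it in 7, Tie1 in 3 and Kdr in 2 of the 16, and Pecam1, Tek, Cldn5 and Emcn in 0.

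**Figure D2:**
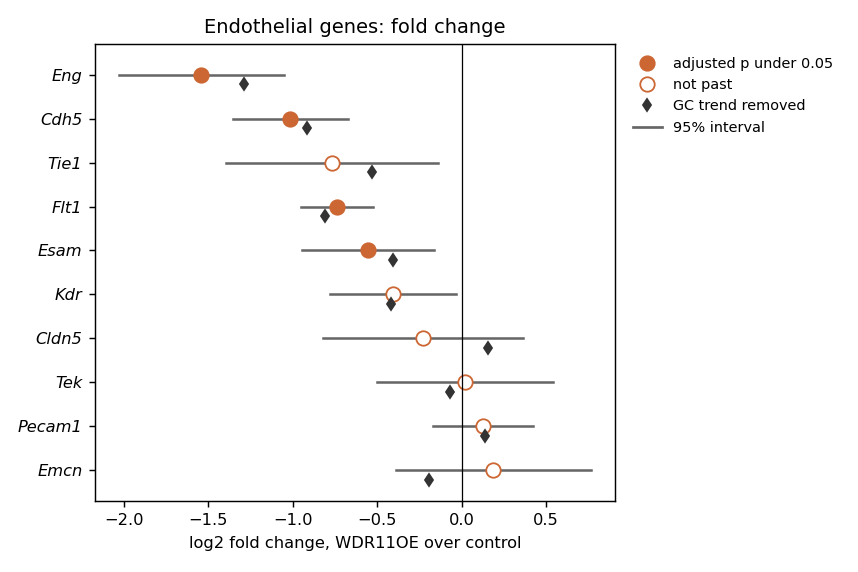
Log2 fold change of the 10 endothelial genes, WDR11OE over control, with its 95% interval (circles, filled where the edgeR adjusted p is under 0.05), and the same after removal of the trend with GC content (diamonds). The intervals of Eng, Cdh5, Flt1, Esam, Tie1 and Kdr lie below 0, and those of Cldn5, Tek, Pecam1 and Emcn span it.

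The level of the 10 genes as a group and the balance among them were looked at separately. Summed over the 10 genes, CPM was 150.5, 201.9 and 178 in the controls and 126.3, 117.0, 117.1 and 112 in the WDR11OE tumors. No WDR11OE tumor reached the lowest control, which was control 1. Each gene was then set against the mean log2 CPM of the 10 genes in the same tumor. Eng (difference −1.03) and Cdh5 (−0.53) were lower in every WDR11OE tumor than in every control on this relative scale, against 4.06% of all genes tested. Emcn (0.71), Pecam1 (0.61) and Tek (0.49) were higher in every WDR11OE tumor on the same scale, against 45.4% of all genes tested, whose median fold change lies above that of the 10 genes. The relative values of Kdr, Flt1, Tie1, Cldn5 and Esam overlapped between the groups. That mean includes Eng and Cdh5 themselves, so that their fall raises the relative values of the other genes. The estimated changes differed between the 10 genes, and whether they differ beyond 1 common amount was not tested.

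**Figure D3:**
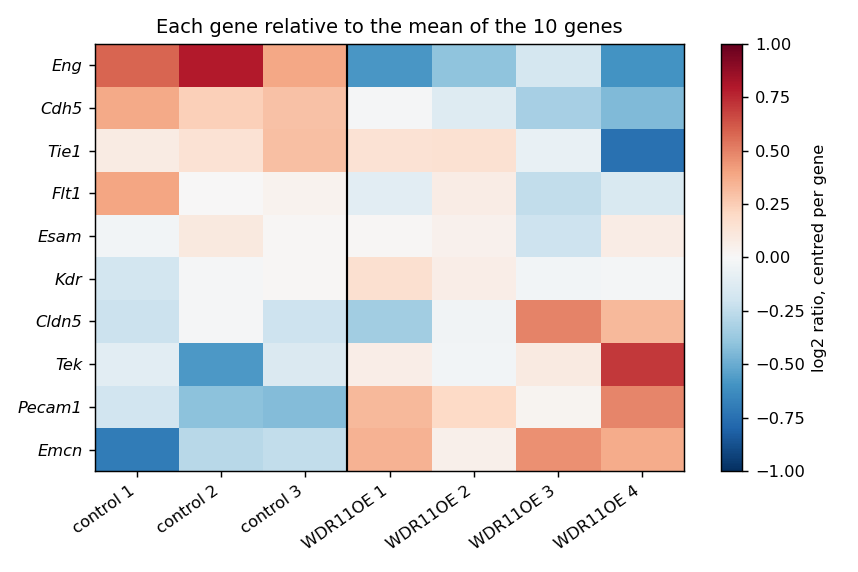
Log2 CPM of each endothelial gene (rows) minus the mean of the 10 genes in the same tumor (columns), centred per gene. Color runs from −1 (blue) to 1 (red) on the log2 scale. Eng and Cdh5 are higher in the 3 controls than in the 4 WDR11OE tumors, and Tek, Pecam1 and Emcn are the reverse.

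The order of the levels per exon length also changed. In the controls, Cdh5 led with 8.95 CPM per kb ± 1.03 (SD, n = 3), above the range of all others, followed by Cldn5 (5.51), Eng (5.08), Pecam1 (4.09), Kdr (4.08) and Esam (3.98), whose ranges overlapped from each to the next. Below these came Flt1 (2.89), Tie1 (2.42), Emcn (1.14) and Tek (0.72 CPM per kb), where the ranges of Emcn and Tek overlapped. In the WDR11OE tumors the highest 3 were Cldn5 at 4.71 CPM per kb ± 1.21, Pecam1 at 4.45 ± 0.524 and Cdh5 at 4.43 ± 0.70 (SD, n = 4), with overlapping ranges. Eng stood in place 3 of the control order and in place 6 of the WDR11OE order, at 1.75 CPM per kb ± 0.287 (SD, n = 4). Tek was lowest in both groups, at 0.72 and 0.73 CPM per kb.

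Over the 7 tumors, Pearson's r of log2 CPM for the 45 pairs of endothelial genes ran from −0.44 (Tek and Tie1) to 0.97 (Cdh5 and Flt1), with a median of 0.28. Of these pairs, 16 had r over 0.5 and 14 had a negative r. The points share libraries and the difference between the groups. With each group's mean removed, r of the 45 pairs ran from −0.78 (Flt1 and Tek) to 0.91 (Cdh5 and Tie1), with a median of 0.39, and 14 pairs were over 0.5 and 11 negative. On that scale r was 0.65 for Cdh5 and Flt1, 0.40 for Cdh5 and Eng and −0.68 for Tek and Tie1. Among 14339 genes outside the lists used here, those nearest to the mean log2 CPM of the 10 genes over the 7 tumors were Prdm11 (r = 0.99), Il6st (0.99), B230120H23Rik (0.99), Ap2b1 (0.99) and Phlda3 (0.99). All 5 were lower in every WDR11OE tumor than in every control. The mean of the 10 genes was so as well, so that picking genes by likeness to it favors this. Of all genes tested, 19.1% were lower in every WDR11OE tumor. Phlda3 did not pass the test (edgeR adjusted p = 0.0692).

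Promoters of the genes of the list were also examined, as a description without a test. The 250 bases before the start of transcription were read from RefSeq (build GRCm38.p6) for the 7 genes matched there, and Pecam1, Cdh5 and Esam were not matched. Many endothelial promoters are bound by ETS factors, which recognise a GGAA core. The forms CAGGAA and CCGGAA were searched on both strands, so that they appear as TTCCTG and TTCCGG on the other strand. Those of Eng (chr2:32646345-32646594, + strand) and Flt1 (chr5:147726012-147726261, − strand), which fell, are set beside those of Tek (chr4:94739039-94739288, + strand) and Emcn (chr3:137340828-137341077, + strand), which did not pass the test. Each is written 5′ to 3′ along the gene, with a match in capitals.
Eng: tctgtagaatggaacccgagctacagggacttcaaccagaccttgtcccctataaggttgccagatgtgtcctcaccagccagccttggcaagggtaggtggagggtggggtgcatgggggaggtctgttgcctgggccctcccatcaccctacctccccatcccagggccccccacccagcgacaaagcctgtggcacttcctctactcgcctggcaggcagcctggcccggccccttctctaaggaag
Flt1: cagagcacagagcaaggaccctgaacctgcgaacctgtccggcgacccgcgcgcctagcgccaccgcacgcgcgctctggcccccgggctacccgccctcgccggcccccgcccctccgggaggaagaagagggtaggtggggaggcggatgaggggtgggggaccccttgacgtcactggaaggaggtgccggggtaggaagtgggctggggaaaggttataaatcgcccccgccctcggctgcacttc
Tek: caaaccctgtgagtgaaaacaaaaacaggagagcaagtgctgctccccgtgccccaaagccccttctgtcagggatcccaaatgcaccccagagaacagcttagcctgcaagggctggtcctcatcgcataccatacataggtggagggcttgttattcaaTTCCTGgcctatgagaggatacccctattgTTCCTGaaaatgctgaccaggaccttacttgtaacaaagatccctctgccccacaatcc
Emcn: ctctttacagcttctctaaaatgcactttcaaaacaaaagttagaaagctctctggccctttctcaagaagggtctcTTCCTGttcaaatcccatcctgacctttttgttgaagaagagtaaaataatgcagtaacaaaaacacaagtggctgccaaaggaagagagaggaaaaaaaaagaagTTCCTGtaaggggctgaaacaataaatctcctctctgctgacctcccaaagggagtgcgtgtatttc

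Tek had TTCCTG at positions −89 and −59 from the start and Emcn at −173 and −67, whereas neither form was found in the windows of Eng, Flt1 and Cldn5. Tie1 had TTCCTG at −209 and Kdr had TTCCGG at −153. In all, 4 of the 7 endothelial windows held either form, against 35.06% of 32851 windows of the same length from all genes. The forkhead form TGTTTA (in 12.03% of all windows), the GATA form AGATAA (9.99%) and the hypoxia form ACGTG (16.57%) were found in 0 of the 7. A match is a run of letters and not a measured site, and the absence of one holds for these letters in these windows. Other forms of the GGAA core were not searched. The windows of Eng and Flt1 both hold GAGGAA, in Eng as TTCCTC on the other strand. The windows of Eng and Flt1 therefore do not lack the GGAA core.

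The fold changes of all genes fell with the GC content of their exons, and the endothelial genes differ in GC content. Over 14919 protein-coding genes, none of which is an independent replicate, Pearson's r of log2 fold change and GC content was −0.28 and Spearman's rho was −0.35. The median log2 fold change fell from 0.53 in the bin of genes at 38.6% GC to −0.33 in the bin at 61.3% GC. Across the 10 endothelial genes r was −0.54 and rho was −0.55. Eng had a GC content of 57.2%, Cdh5 of 52.2% and Flt1 of 47.4%, while Emcn had 40.3% and Cldn5 60.5%. With the GC trend removed, the log2 fold change was −1.29 for Eng (edgeR adjusted p = 0.00497), −0.92 for Cdh5 (0.00404) and −0.81 for Flt1 (0.00232). The same correction took Esam to −0.40 (edgeR adjusted p = 0.111), Cldn5 to 0.16 and Emcn to −0.19, where the last pair changed sign without passing the test.

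**Figure D4:**
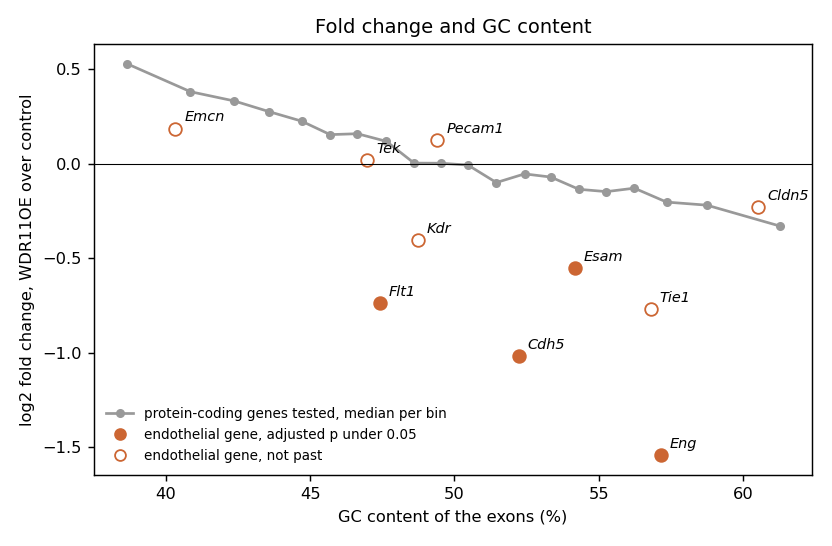
Log2 fold change, WDR11OE over control, against the GC content of the exons (percent). The gray line joins the medians of 20 bins of protein-coding genes, and circles are the 10 endothelial genes, filled where the edgeR adjusted p is under 0.05. Eng, Cdh5 and Flt1 lie furthest below the line, and Pecam1 and Cldn5 lie above it.

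The partners of these receptors were taken from lists of vessel genes. Of 127 tested genes on these lists, without the 10 endothelial genes, 43 were lower and 4 were higher in the same edgeR test, with a median log2 fold change of −0.45. In all, 37% of the 127 passed, against 33.9% of all genes tested. Of all genes tested, 15.8% were lower and 18.1% were higher, and these shares are the background for the counts of every list below. Some genes stand on 2 lists (Ptprb, Angpt2, Dll4, Flt4 and Robo4 on vessel lists) and are counted once in this total and once in each list. A call on a gene of these lists that did not hold under all 16 alternatives is given with the number under which it held.

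Of the 8 other VEGF ligands and receptors, 3 were lower and 0 higher, and the median log2 fold change was −0.48. Vegfb, a ligand of FLT1, was at 17.6, 19.4 and 18 CPM in the controls and at 10.3, 10.4, 10.5 and 9.43 CPM in the WDR11OE tumors, with no overlap (log2 fold change −0.85, edgeR adjusted p = 0.00140). Flt4, the VEGF-C receptor, had a log2 fold change of −1.11 (edgeR adjusted p = 0.0271, held under 9), and the co-receptor Nrp2 had −0.47 (0.0245, held under 11). Vegfa, the main ligand of KDR, was at 122, 109.9 and 86.7 CPM in the controls and at 140.5, 162, 106 and 84.9 CPM in the WDR11OE tumors, where the groups overlapped (log2 fold change 0.22, edgeR adjusted p = 0.518). Flt1 and its ligand Vegfb were thus both lower, and no difference in Vegfa was detected.

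Of the 4 angiopoietin genes, 3 were tested and 0 passed. Angpt1, the agonist of TEK, had a log2 fold change of −0.05 (edgeR adjusted p = 0.895), Angpt2 had 0.07 (0.882), and Ptprb, the phosphatase that acts on TEK, had −0.54 (0.166). Ptprb passed without WDR11OE tumor 3 (−0.79, edgeR adjusted p = 0.0272).

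Of 9 partners and targets of endoglin, 4 were lower and 1 was higher. The type II receptors fell, with Bmpr2 at 113 CPM ± 11.5 (SD, n = 3) against 59.7 CPM ± 9.12 (SD, n = 4) (log2 fold change −0.92, edgeR adjusted p = 0.00212) and Tgfbr2 at 38.8 CPM ± 2.64 against 19.8 CPM ± 3.55 (−0.97, edgeR adjusted p = 0.00289). Acvrl1, the ALK1 receptor with which endoglin acts in endothelium, had a log2 fold change of −0.73 (edgeR adjusted p = 0.0169, held under 14), and the ligand Tgfb1 had −1.56 (0.0171, held under 13). Control 1, at 9.50 CPM of Tgfb1, lay near the WDR11OE tumors. Tgfbr1, the type I TGF-beta receptor, was the higher gene (0.32, edgeR adjusted p = 0.0207, held under 7). Bmpr2 and Tgfbr2 are made by many cell types, and which cells made their RNA in these tumors was not tested.

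Of 11 Notch, ephrin and guidance genes of vessels, 6 were lower and 0 higher. Plxnd1, the semaphorin receptor of endothelial cells, had the smallest p (54.8 CPM ± 2.26, n = 3, against 23.7 CPM ± 5.56, n = 4; log2 fold change −1.21, edgeR adjusted p = 0.00283). Of 12 endothelial transcription factors, 4 were lower and 0 higher. Sox18 was at 87.8, 104 and 110.2 CPM in the controls and at 44.8, 53.2, 48.6 and 31.0 CPM in the WDR11OE tumors (log2 fold change −1.18, edgeR adjusted p = 0.00310). Its control mean was 100.5 CPM over 1620 exon bases. The highest of the 10 endothelial genes, Cdh5, had a control mean of 35.7 CPM over 3986 exon bases. Which cells made the Sox18 RNA was not tested. Sox7 had a log2 fold change of −1.29 (edgeR adjusted p = 0.00518), and Epas1, the hypoxia factor HIF-2alpha, had −1.07 (0.0167, held under 15 and lost without control 2). The ETS factor Erg, which is largely endothelial in such tissue, had −0.56 (edgeR adjusted p = 0.0302, held under 10).

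Most of the other endothelial genes did not pass the test. Of 25 other endothelial-restricted genes, which include Ptprb and Robo4 of the other lists, 4 were lower and 0 were higher, which is 16% and close to the 15.8% of all genes tested, with a median log2 fold change of −0.33. The count of lower genes was between 0 and 6 over the alternatives, and it was 0 without control 2 and without WDR11OE tumor 2. The adhesion receptor Gpr116 (−0.60, edgeR adjusted p = 0.0188, held under 12), the adrenomedullin co-receptor Ramp2 (−0.90, 0.0245, held under 9), Rasip1 (−0.65, 0.0252, held under 9) and Cyyr1 (−0.59, 0.0390, held under 8) were the lower ones. Cd34, a sialomucin of endothelium and blood progenitors, was at 25.8, 27.1 and 27.9 CPM in the controls and at 30.0, 27.0, 25.7 and 27.9 CPM in the WDR11OE tumors (0.04, edgeR adjusted p = 0.752). Egfl7, which endothelial cells secrete, was higher in every WDR11OE tumor than in every control but did not pass (0.37, edgeR adjusted p = 0.0826), and it passed with the GC trend removed (0.66, edgeR adjusted p = 0.0171).

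Of 15 blood-brain barrier genes, 1 was lower and 2 were higher, with a median log2 fold change of 0.08, that of all genes tested. Foxq1, a forkhead factor of brain endothelium, was lower (−1.27, edgeR adjusted p = 0.00534). The efflux transporter Abcg2 (0.55, edgeR adjusted p = 0.00388) and the transferrin receptor Tfrc (0.82, 0.00446), which dividing cells also make, were higher, and both calls were lost with the GC trend removed (adjusted p of 0.234 and 0.0894). Of 8 genes of the WNT and norrin signals to brain endothelium, 4 were lower and 1 higher. Gpr124, the WNT7 co-receptor that brain vessels need, was at 172 CPM ± 11.1 (SD, n = 3) against 79.6 CPM ± 12.5 (SD, n = 4) (log2 fold change −1.11, edgeR adjusted p = 0.00129). Its control mean, over 5499 exon bases, was also above the 35.7 CPM of Cdh5. Which cells made the Gpr124 RNA was not tested. Tspan12, the co-activator of the norrin receptor, was higher (0.50, edgeR adjusted p = 0.0260, held under 8). Of 8 tip cell and fenestrated vessel genes, 2 were lower: Plvap, the diaphragm protein of leaky vessels (−1.27, edgeR adjusted p = 0.0240, held under 11), and Pdgfb, which recruits pericytes (−0.53, 0.0291, held under 8).

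Genes of the vessel wall around the endothelium were lower in part. Of 17 pericyte and smooth muscle genes, 6 were lower and 0 higher, and 6 of the 11 that did not pass had a log2 fold change above 0. Among these were Rgs5, a pericyte marker, at 49.7 to 60.3 CPM in the controls and 56.7 to 80.4 CPM in the WDR11OE tumors (0.22, edgeR adjusted p = 0.250), and Vtn (0.41, 0.194). The summed CPM of the list was between 905 and 925 in the controls and between 455.5 and 613.5 in the WDR11OE tumors. The largest part of it from a single gene was Cspg4 (NG2), which oligodendrocyte progenitors also make. Cspg4 was at 502 to 532 CPM in the controls and 217 to 353 CPM in the WDR11OE tumors (−0.79, edgeR adjusted p = 0.00949, lost with the GC trend removed). Foxf2, a forkhead factor of brain pericytes, was at 54.3, 83.2 and 84.4 CPM in the controls and at 12.5, 11.5, 12.8 and 10.7 CPM in the WDR11OE tumors, the largest fall among the genes named here (log2 fold change −2.64, edgeR adjusted p = 0.000858). Tbx18 had a log2 fold change of −1.55 (edgeR adjusted p = 0.00161), and Pdgfrb, the receptor for PDGF-B, had −0.60 (0.00865). Of 11 basement membrane genes, 7 were lower and 0 higher. These included the laminin chain Lamc1 (−1.0, edgeR adjusted p = 0.00121), Nid2 (−1.13, 0.00286) and Lamb2 (−0.78, 0.00830, lost with the GC trend removed). Of 5 lymphatic genes tested, 3 were lower, and 1 of these is Flt4, already counted with the VEGF receptors. Lyve1 had a log2 fold change of −2.20 (edgeR adjusted p = 0.0259, lost without control 2, control 3 or WDR11OE tumor 3). Lyve1 had only 7 to 94 counts per tumor, its groups overlapped, and the filter of 1 CPM removed it. Prox1 was at 3.10 CPM ± 0.648 (SD, n = 3) against 1.08 CPM ± 0.269 (SD, n = 4) (edgeR adjusted p = 0.00548). Prox1 is also a neuronal factor, and mural and basement membrane genes are also made by other cells.

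Single tumors decided several of these calls. Without control 2, the calls on Acvrl1, Epas1 and Tgfb1 were lost (edgeR adjusted p of 0.0634, 0.0640 and 0.0665), and without control 3 that on Tgfb1 was lost as well (edgeR adjusted p = 0.0625). The calls on Flt4, Nrp2, Gpr116, Ramp2, Rasip1, Cyyr1, Erg, Plvap, Pdgfb and Tgfbr1 were each lost without control 2 and also without at least 2 of the other tumors, and that on Tspan12 without any 1 of control 1, control 3 and WDR11OE tumors 1, 2 and 3. With the GC trend removed, the calls on Acvrl1, Flt4, Pdgfb, Plvap, Ramp2, Rasip1, Tgfb1, Tgfbr1 and Tspan12 were lost too. The calls on Vegfb, Bmpr2, Tgfbr2, Plxnd1, Sox18, Sox7, Foxq1, Gpr124, Foxf2, Tbx18, Pdgfrb, Lamc1, Nid2 and Prox1 held under all 16 alternatives.

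**Figure D5:**
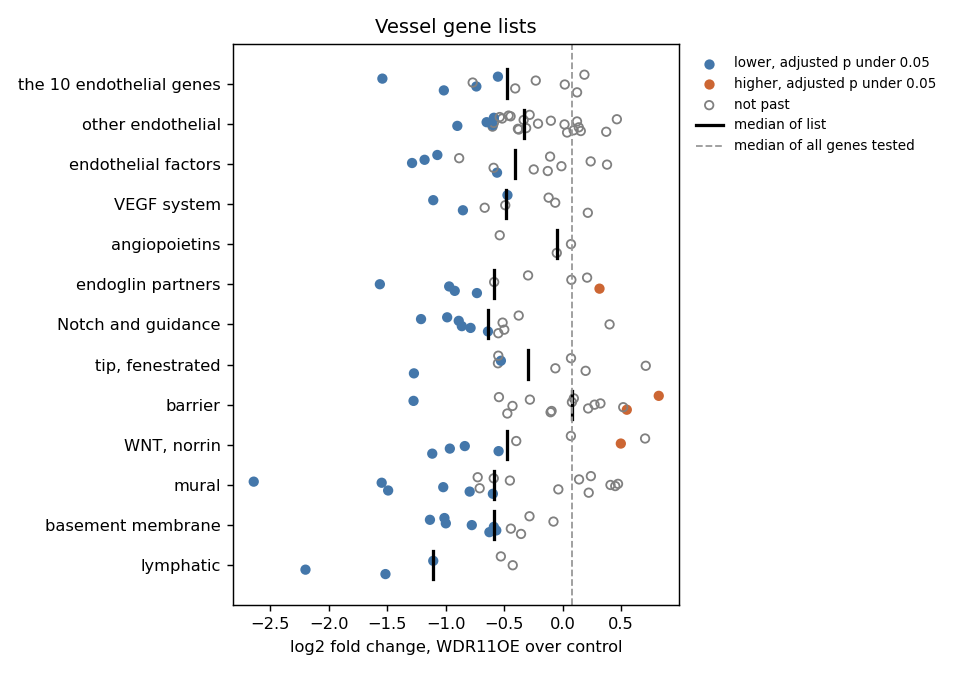
Log2 fold change, WDR11OE over control, of every tested gene of the 10 endothelial genes and of 12 vessel gene lists (filled where the edgeR adjusted p is under 0.05, blue lower and orange higher), with the median of each list (black bar) and of all genes tested (dashed line, 0.08). The barrier list has its median at the dashed line, and the median of the lymphatic list lies furthest to the left of it.

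Markers of other cell types in the pieces of tumor were counted on the same scale. The summed CPM of the fibroblast list was between 3379 and 4214 in the controls and between 1343 and 1727 in the WDR11OE tumors. Most of this sum was Col3a1, at 2722 to 3264 CPM in the controls and 1047 to 1234 CPM in the WDR11OE tumors. Of the 6 fibroblast genes, 2 were lower: Col3a1 (log2 fold change −1.42, edgeR adjusted p = 0.000917) and Pdgfra (−0.62, 0.0152, lost without WDR11OE tumor 2). Col1a1 (−1.13, edgeR adjusted p = 0.247), Col1a2 (−1.04, 0.178), Dcn (1.05, 0.174) and Lum (0.46, 0.235) did not pass, and the negative values of both collagen genes rest on control 1, without which they were 0.088 and −0.0076. Of the platelet list, which does not hold Pecam1, 0 of the 6 genes tested passed, and its summed CPM was between 7.51 and 12.4 in the controls and between 7.84 and 9.55 in the WDR11OE tumors. The 14 macrophage and microglia genes gave 0 calls and summed to between 182 and 402 CPM in the controls and to between 192 and 349 CPM in the WDR11OE tumors. Red cell genes also gave 0 calls, with sums from 99.0 to 1124 CPM and from 23.6 to 378 CPM, which spread widely within each group. Neuron genes (69.0 to 441 CPM and 12.5 to 684 CPM) and glial genes (229.8 to 463.5 CPM and 111 to 593 CPM) gave 0 calls and overlapped. Of 10 hypoxia genes 0 passed, with a median log2 fold change of 0.27. Of the 5 tumor cell genes, 4 were tested, and 1 was lower and 0 higher, with a median log2 fold change of 0.61. The lower one was Myc, which the model carries as a transgene (914 CPM ± 169, n = 3, against 347 CPM ± 75.5, n = 4, edgeR adjusted p = 0.00227). The 3 others tested had log2 fold changes above 0 and did not pass. The part of these cell types in the values of the 10 endothelial genes was not tested.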

How the data were processed

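RNA was measured in 7 tumors. The authors mapped the reads to mouse build mm9 (NCBIM37) with the StrongArm pipeline, for which the labels' processing notes name STAR and BWA, and counted reads on GENCODE genes with HT-seq. They deposited these counts without normalization. The paper's methods name stranded total RNA and the labels a TruSeq RNA kit, and the strand setting of the counting is not given in the sources used here.

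In R 4.3.3, genes were kept by filterByExpr of edgeR 4.0.16, scaled with TMM factors and compared by its quasi-likelihood test (two-sided, p-values adjusted by Benjamini-Hochberg over 17389 genes), with condition as the only term. The typical biological coefficient of variation was 34.6%. CPM use TMM library sizes, and log2 CPM a prior count of 2. Single genes were also compared by exact permutation over 35 splits. Standard errors are the log2 fold change over the root of F. Exon length and GC content came from GENCODE on NCBIM37, matched for 33606 genes. The fit was tested on simulated data.

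The 10 genes and all lists were chosen with earlier results of these data known. Genes named are the 10, the calls with the smallest p of each list (up to 3 in each direction for 8 of the lists, otherwise 1) and the 5 genes nearest to the mean of the 10. Vegfa, Angpt1, Angpt2, Ptprb, Tgfb1, Erg, Cd34, Egfl7, Cyyr1, Pdgfb, Cspg4, Rgs5, Vtn, Lyve1, Pdgfra, Dcn, Lum, Col1a1 and Col1a2 are outside this rule, picked once their values had been seen. Alternatives were limma 3.58.1 with voom, DESeq2 1.42.0, other scalings and filters, a GC offset, an adjusted p of 0.01, WDR11OE tumors 1 and 2 summed, and leaving out each tumor. Intervals cover the spread between tumors, of which counting error is a part that was not estimated separately. Each of the 10 genes had 104 counts or more in every tumor. Some genes of the lists had fewer, such as Lyve1 with 7 counts in WDR11OE tumor 3. The exomes, qRT-PCR and survival were not analysed here.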

Additional observations from a re-analysis of the deposited data

Results flagged for a closer look

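In 58 named genes, the highest and the lowest of the 4 WDR11OE tumors were compared with the others by Dixon's ratio of the gap to the range of log2 CPM against the 95% critical value for 4 samples. None of the 10 endothelial genes exceeded it, and 4 genes of the vessel lists and 1 fibroblast gene did. WDR11OE tumor 4 was the lowest for Flt4 (ratio 0.864, log2 CPM of 1.06 against 2.04 in the nearest tumor), Pdgfrb (0.872), Lamc1 (0.876) and Col1a1 (0.965). WDR11OE tumor 3 was the lowest for Erg (0.84). Chance flags about 1 in 20 groups. Without WDR11OE tumor 4, which was also the lowest for Tie1, the log2 fold changes were −0.90 for Flt4, −0.51 for Pdgfrb and −0.91 for Lamc1. Without WDR11OE tumor 3, the log2 fold change of Erg was −0.52 and the call was lost (edgeR adjusted p = 0.0784).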

How the results depend on the processing

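No paired analysis was possible because the labels carry no replicate numbers that the groups share. Of the 10 endothelial genes, 3 to 6 were lower and 0 higher under every alternative, and the 6 were reached with DESeq2, which added Kdr and Tie1 and which made more false calls than edgeR on simulated data. The count of other vessel list genes that were lower was 23 at an adjusted p of 0.01, and between 27 (without control 2) and 44 with single tumors left out. The higher ones were 2 at 0.01, 1 with GC correction, 2 without a filter and 2 with WDR11OE tumors 1 and 2 summed, and between 2 and 5 with single tumors left out. Over all genes, lower calls were 1552 at 0.01. Higher calls were 1549 at 0.01, 2093 without a filter, 1629 with the tumors summed, and from 1560 (without WDR11OE tumor 1) to 2986 with single tumors left out. The directions that turned belong to genes that were not called. With GC correction, the log2 fold change was 0.16 for Cldn5, −0.19 for Emcn, −0.070 for Tek, −0.11 for Rgs5 and −0.015 for Angpt2. For Tek it was −0.028 with DESeq2, −0.034 with its size factors, −0.0048 with a filter of 1 CPM and −0.042 with no filter. For Cd34 it was −0.0064 with DESeq2, −0.0066 with its size factors, −0.017 with no filter and −0.027 with the tumors summed. With single tumors left out it lay between −0.15 and 0.11 for Tek, −0.046 and 0.36 for Emcn, −0.23 and 0.017 for Angpt1, −0.21 and 0.32 for Angpt2, −0.044 and 0.072 for Cd34, and −1.50 and 0.088 for Col1a1. The cause of these changes was not tested. The median log2 fold change of all genes moved from 0.08 to at most 0.14 (no filter) and at least −0.0080 (without WDR11OE tumor 4). Single lists are small, and their counts of lower genes moved by over 1.5 times under some alternative for the VEGF (1 to 3), endoglin (2 to 5), Notch (3 to 7), transcription factor (2 to 5), tip cell (0 to 2), lymphatic (1 to 4), other endothelial (0 to 6), barrier (1 to 2) and fibroblast (1 to 2) lists, and from 0 to 1 for the angiopoietin, platelet, macrophage and hypoxia lists.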
